A study of Mus musculus with 12 samples.

Results

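The comparison described here is the effect of the amino acid L-proline on mouse embryonic stem cells that were also given the synthetic glucocorticoid budesonide. It rests on 6 of the 12 libraries of the study: 3 from cells exposed to budesonide alone for 72 h and 3 from cells exposed to both compounds for 72 h, called the combined libraries below. The libraries were chosen by their labels, and every gene that passed a filter on low counts was tested, 13852 in all. The other 6 libraries, 3 from untreated control cells and 3 from cells given proline alone for 72 h, give the proline effect without budesonide, which shares no library with the comparison. All 12 libraries came from E14, a standard mouse embryonic stem cell line, cultured in 2 dimensions, and no dose is given in the labels. Whether a replicate is a culture of its own is not stated in the labels, so p-values cover only how far these libraries vary, and that variation may be technical.

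Mouse embryonic stem cells correspond to the naive epiblast of the early embryo and are held in that state by a network of transcription factors that includes Nanog, Esrrb, Klf4 and Tfcp2l1. When they leave it, they pass through a formative state marked by Pou3f1, Otx2 and the de novo DNA methyltransferases. Cells short of an amino acid stop degrading and start translating the transcription factor Atf4, which raises genes of amino acid synthesis and uptake through promoter elements bound by Atf4 with C/EBP proteins. Added L-proline is known to push embryonic stem cells towards a primed, more motile state. Glucocorticoids such as budesonide act on transcription through the glucocorticoid receptor.

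Each library was made from polyadenylated RNA with a kit that reads 1 fragment near the 3′ end of a transcript, and a value below in CPM is a gene's count scaled to the size of its library. The budesonide libraries held 6.03 to 8.48 M counts and the combined libraries 6.58 to 7.52 M. Replicates of a group correlated at 0.887 or more on the log2 CPM scale, and no pair of libraries agreed within sampling noise. Budesonide replicate 3 stood somewhat apart, with 8.43% of tested genes at 0 counts and 6.70% of its counts on the 18S ribosomal RNA gene Rn18s. Summed CPM of 5 embryonic stem cell markers (Pou5f1, Sox2, Nanog, Sall4, Zfp42) ran from 1342 to 1476 in the budesonide and from 1453 to 1560 in the combined libraries. Summed CPM of 10 feeder fibroblast markers ran from 8.97 to 13.1 and from 4.79 to 10.1, with Lum and Postn at 0 in both groups.

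Proline still changed the transcriptome in the presence of budesonide, but far fewer genes passed the test. With edgeR's quasi-likelihood test and Benjamini-Hochberg adjustment over all genes, 203 of 13852 genes (1.47%) were called at an adjusted p below 0.05, of which 121 (0.874%) rose and 82 (0.592%) fell. Without budesonide, the same fit called 1091 genes (7.88%), 439 (3.17%) up and 652 (4.71%) down. The 3 combined libraries lay all above or all below the 3 budesonide libraries for all 203 genes, and for 19.4% of all genes tested. The difference between the proline effects, tested as an interaction, was called for 65 genes (0.469%). All 65 were called without budesonide, 8 of them up and 57 down, and all 65 had a smaller absolute change with budesonide. The interaction was thus positive for 57 genes (0.411%) and negative for 8 (0.0578%). The count of 203 moved with single libraries: it was 80 without combined replicate 1, 102 without combined replicate 2, 82 without combined replicate 3, 92 without budesonide replicate 3, 135 without budesonide replicate 1 and 307 without control replicate 3. Control replicate 3 is not among the 6 libraries compared and enters through the gene filter, the scaling and the shared estimate of spread. With budesonide replicate 3 and control replicate 3 both left out it was 196. The 439 rises without budesonide became 223 without proline replicate 1, 240 without proline replicate 3 and 271 without control replicate 1 or 2.

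Most genes called in one setting had the same sign in the other. Of the 203 genes called with budesonide, 66 rose and 59 fell in both settings and none was called in opposite directions. That overlap of 125 genes became 60, 64 and 66 without combined replicates 1, 2 and 3 and 69 without budesonide replicate 3. The other 78 were not called without budesonide, although 69 of them had the same sign there, and the interaction was called for 0 of these 78. Read from the other side, 397 of the 439 genes that rose with proline alone (90.4%) and 572 of the 652 that fell (87.7%) kept their sign with budesonide, beside 50.6% of all genes with a positive change. Among these genes the median log2 change of the risen genes was 0.38 with and 0.78 without budesonide, and that of the fallen genes -0.35 with and -0.95 without. The median share of a gene's log2 change that was kept was 0.385 over all 1091 genes, 0.475 for the risen genes and 0.340 for the fallen genes. The calls that define these genes came from the libraries without budesonide, so their median there was fixed by that choice and is a description. Read on the 203 genes called with budesonide, the order turned: 125 of them had a larger absolute change with budesonide than without. Across all 13852 genes tested, the changes with and without budesonide correlated with Pearson's r = 0.257 (Spearman's rho = 0.303), and across the 8092 with a mean of at least 10 CPM with r = 0.506 (rho = 0.449), a description across genes that are not independent replicates.

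**Figure D1:**
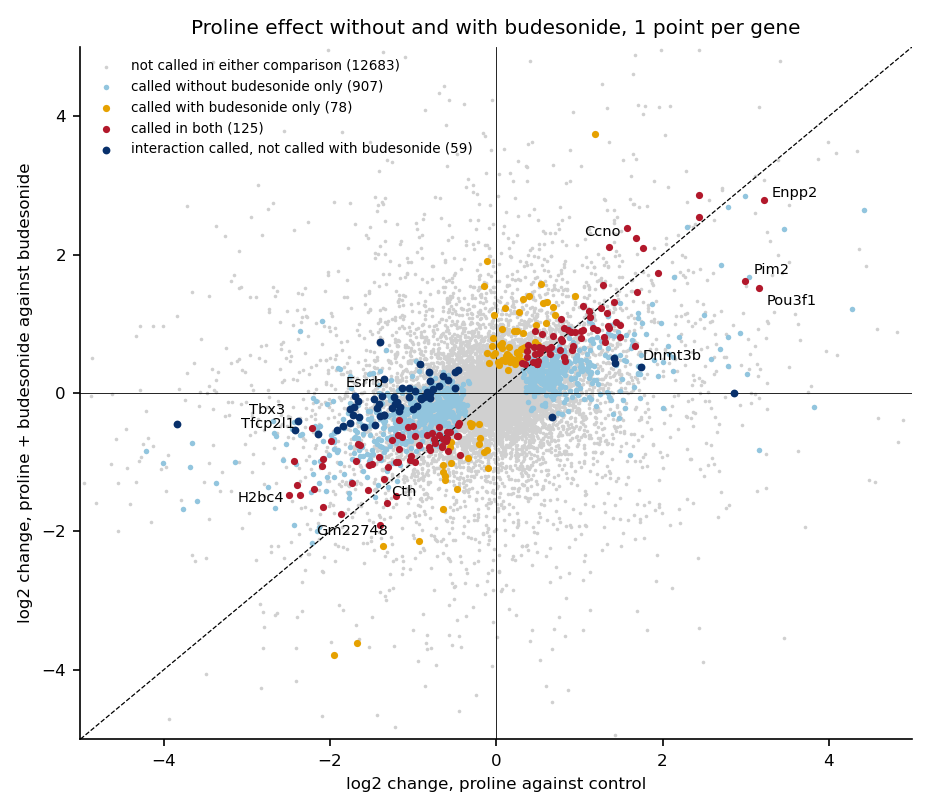
Log2 change with proline without budesonide (x axis) and with budesonide (y axis), 1 point per gene tested, with colours for the genes called in each comparison and a dashed line of equal change; 145 genes beyond 5 on either axis are not drawn. The 125 genes called in both lie in the lower left and upper right, and the genes with a called interaction changed less on the y axis than on the x axis.

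Several genes of the amino acid starvation response fell with proline whether or not budesonide was present. Of 38 tested genes of the list, 6 fell and 0 rose with budesonide (Asns, Cth, Slc7a1, Slc1a5, Psat1 and Pck2), 24 had a negative change, and the median log2 change was -0.40. Over all genes 0.592% fell and 0.874% rose, with a median of 0.01. Without budesonide 11 fell and 1 rose, beside 4.71% and 3.17% of all genes, with a median of -0.32. In both settings 5 genes fell, and the interaction was called for 0 of the 38. The list covers Atf4 itself, enzymes that make amino acids, transporters that import them, and regulators that feed back on the pathway.

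Among the enzymes, Asns, asparagine synthetase, stood at 295, 279 and 246 CPM in the budesonide libraries and at 156, 157 and 153 CPM in the combined libraries. Its log2 change was -0.82 ± 0.12 (SE; edgeR quasi-likelihood test, adjusted p = 0.00118), and -1.17 ± 0.13 without budesonide. Cth, the cystathionine gamma-lyase that makes cysteine, stood at 61.9, 55.6 and 63.9 CPM with budesonide and at 26.9, 23.0 and 27.1 CPM with both compounds. All 3 combined libraries lay below all 3 budesonide libraries for both genes, and for Cth the log2 change of -1.24 ± 0.20 (adjusted p = 0.00178) stood beside -1.35 ± 0.20 without budesonide. Psat1, which makes phosphoserine on the way to serine, was at 272, 282 and 272 CPM with budesonide and at 164, 151 and 205 CPM with both (log2 change -0.67 ± 0.13, adjusted p = 0.00751, and -0.65 ± 0.13 without budesonide). Pck2, the mitochondrial PEP carboxykinase, fell by 1.04 ± 0.24 on the log2 scale (adjusted p = 0.0306). The Psat1 call ended without combined replicate 1 or 2 (adjusted p = 0.0529 and 0.0566), and the Pck2 call without budesonide replicate 2 or any combined replicate (adjusted p up to 0.166).

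Among the transporters, Slc7a1, which imports arginine and lysine, stood at 107, 136 and 123 CPM in the budesonide libraries and at 67.4, 67.5 and 58.0 CPM in the combined libraries. The groups did not overlap, and the log2 change was -0.92 ± 0.15 (edgeR, adjusted p = 0.00178), with -1.41 ± 0.15 without budesonide. Slc1a5, the glutamine transporter, went from 58.2, 70.7 and 74.4 CPM to 33.5, 35.1 and 45.5 CPM (log2 change -0.83 ± 0.18, adjusted p = 0.0201). That call ended without budesonide replicate 2 or 3 or combined replicate 1 or 2 (adjusted p up to 0.125). Asns, Cth and Slc7a1 were called in each of 22 alternative analyses (other filters, scalings, tools and left-out libraries), but not in a test against a 1.5-fold change. Slc38a2, the transporter that carries proline itself among other small amino acids, went the other way with a log2 change of 0.35 ± 0.09 that missed the threshold (adjusted p = 0.0572), and it rose by 0.42 ± 0.09 without budesonide (adjusted p = 0.00449).

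No regulator of the list was called. Atf4 had a log2 change of -0.30 ± 0.12 with budesonide (edgeR, adjusted p = 0.25) and fell by 0.53 ± 0.12 on the log2 scale without it (adjusted p = 0.00522). Trib3, a pseudokinase that holds Atf4 back, had -0.76 ± 0.21 (adjusted p = 0.0804), and the stress-responsive Nupr1 had -1.42 ± 0.48 (adjusted p = 0.164) at 1.75 to 4.27 CPM in the combined libraries. Gars, a glycyl-tRNA synthetase and the called member among 20 tested cytosolic tRNA synthetases (1 fell, 0 rose), had a log2 change of -0.44 ± 0.11 (adjusted p = 0.0368), a call kept in 11 of 22 alternatives and ended by leaving out any 1 of the 6 libraries compared, among others (adjusted p up to 0.176). Of 17 tested genes of proline metabolism and transport 0 were called with budesonide, and of 19 genes of serine and one-carbon synthesis Psat1 alone fell and 0 rose. Over all genes 0.592% fell and 0.874% rose with budesonide, so lists of this size would hold few calls at that share. Without budesonide 2 rose and 0 fell of the 17, and 3 rose and 3 fell of the 19, beside 3.17% and 4.71% of all genes.

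**Figure D2:**
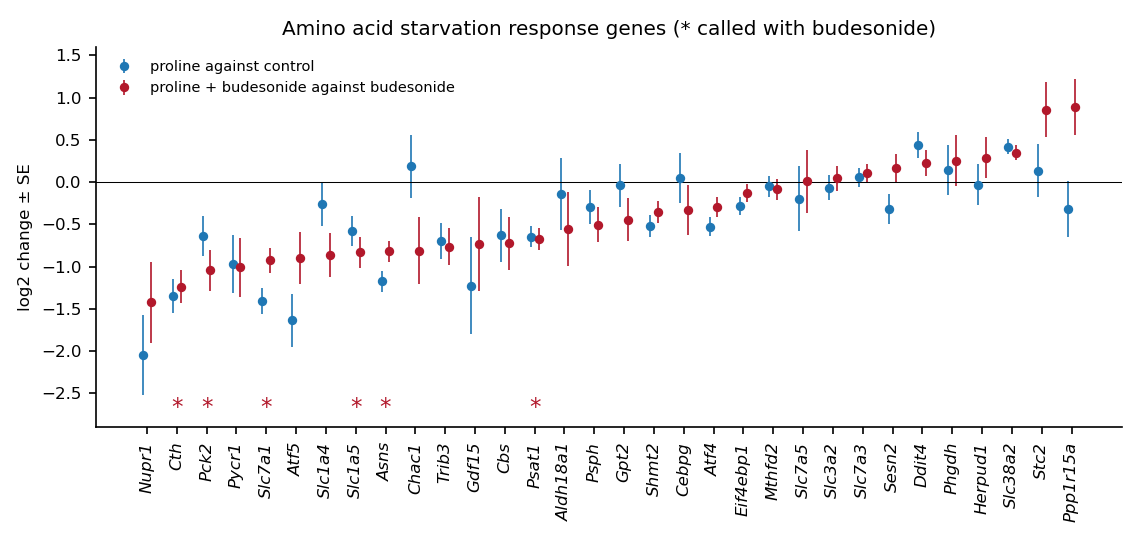
Log2 change with proline of the 32 starvation response genes with a mean of at least 10 CPM in any group, without budesonide (blue) and with budesonide (red), with bars of 1 SE, ordered by the change with budesonide. Stars mark the 6 genes called with budesonide, from Cth at -1.24 to Psat1 at -0.67.

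The promoters of 3 of these genes show what the elements in question look like. Each is the 300 bases from 250 before to 50 after the start of the gene in RefSeq on build GRCm38.p6, read 5′ to 3′ along the gene, with the matched motif in capitals. Asns is at chr6:7693160-7693459 (minus strand), Nupr1 at chr7:126625421-126625720 (minus strand) and Pycr1, which makes proline, at chr11:120643699-120643998 (minus strand).
Asns: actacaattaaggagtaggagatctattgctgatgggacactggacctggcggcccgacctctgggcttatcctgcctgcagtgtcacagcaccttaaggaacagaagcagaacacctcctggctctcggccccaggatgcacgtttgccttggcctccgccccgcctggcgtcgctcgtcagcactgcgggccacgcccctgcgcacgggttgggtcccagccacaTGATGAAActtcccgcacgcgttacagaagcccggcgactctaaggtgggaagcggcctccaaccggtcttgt
Nupr1: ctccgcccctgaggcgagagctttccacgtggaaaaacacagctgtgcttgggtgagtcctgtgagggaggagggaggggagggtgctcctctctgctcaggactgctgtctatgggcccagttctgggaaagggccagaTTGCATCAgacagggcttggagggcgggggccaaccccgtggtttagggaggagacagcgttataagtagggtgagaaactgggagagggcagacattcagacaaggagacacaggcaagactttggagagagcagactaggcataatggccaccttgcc
Pycr1: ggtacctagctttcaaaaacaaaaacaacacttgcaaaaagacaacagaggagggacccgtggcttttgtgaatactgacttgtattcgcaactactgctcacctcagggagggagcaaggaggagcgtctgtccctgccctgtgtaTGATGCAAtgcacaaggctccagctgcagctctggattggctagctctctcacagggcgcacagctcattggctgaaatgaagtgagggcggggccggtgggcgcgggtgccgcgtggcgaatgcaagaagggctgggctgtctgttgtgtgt
The composite C/EBP-ATF motif TGATGCAA was searched on both strands, so that the capitals in Nupr1 are its reverse complement. It was found in 8 of 37 promoters of the 32 list genes in the table (21.6%), those of Atf3, Chac1, Herpud1, Nupr1, Pycr1, Slc1a4, Slc7a11 and Vldlr, and in 294 of 32851 promoters of the same length (0.895%). None of these 8 genes is among the 6 that were called. The variant TGATGAAA, searched after the values were seen, was in 1 of the 37 promoters, that of Asns, and in 1.02% of all. A match is a run of letters and not a measured binding site, and these letters being outside a window says nothing about the factor.

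Several genes of the formative epiblast rose. Of 24 tested, 4 rose (Pou3f1, Pim2, Otx2 and Dnmt3b) and 1 fell (Etv4) with budesonide, beside 0.874% and 0.592% of all genes, and the median log2 change was 0.50. Without budesonide 12 rose and 0 fell (3.17% and 4.71% of all genes) with a median of 0.92, and the interaction was called for Pou3f1, Pim2, Dnmt3b and Dnmt3a. The 4 risers rose in both settings.

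Pou3f1 encodes Oct6, an early POU factor of the formative epiblast. It stood at 45.8, 53.5 and 46.6 CPM in the budesonide libraries and at 150, 146 and 123 CPM in the combined libraries, with no overlap. Its log2 change was 1.52 ± 0.15 (edgeR, adjusted p = 4.15e-06), against 3.15 ± 0.16 without budesonide, and the interaction was -1.63 ± 0.21 (adjusted p = 0.000183). Pim2, a serine/threonine kinase, was at 25.9, 22.8 and 28.1 CPM with budesonide and at 74.6, 80.9 and 81.5 CPM with both compounds. The log2 change of 1.62 ± 0.15 (adjusted p = 1.83e-06) was about as large as that of Pou3f1, and it too was smaller than without budesonide, where Pim2 rose by 3.00 ± 0.15 (interaction -1.37 ± 0.20, adjusted p = 0.000967).

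Otx2 is a homeobox factor of the anterior epiblast. It went from 84.0, 78.7 and 66.0 CPM to 138, 122 and 169 CPM with proline in budesonide, a log2 change of 0.91 ± 0.14 (edgeR, adjusted p = 0.0014), and its change without budesonide was 1.22 ± 0.14, with an interaction of -0.31 ± 0.20 that missed the threshold (adjusted p = 0.72). Dnmt3b, a de novo DNA methyltransferase, stood at 307, 287 and 225 CPM with budesonide and at 444, 431 and 435 CPM with both. Its log2 change of 0.68 ± 0.11 (adjusted p = 0.00187) was below the 1.66 ± 0.11 seen without budesonide, and the interaction was called (-0.99 ± 0.16, adjusted p = 0.00166). All 4 risers were called in each of the 22 alternatives other than the test against a 1.5-fold change. Pou3f1 and Pim2 passed that test, and Otx2 and Dnmt3b did not.

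Other formative genes did not pass the test with budesonide although they rose without it. Dnmt3a, the second de novo methyltransferase, had a log2 change of 0.43 ± 0.13 (edgeR, adjusted p = 0.101) beside 1.43 ± 0.13 without budesonide, and the interaction was called (-0.996 ± 0.18, adjusted p = 0.00687). Lef1, a Wnt pathway factor, had 0.66 ± 0.23 (adjusted p = 0.173) beside 1.62 ± 0.23. Fgf5, the classical marker of primed epiblast, had 4, 1 and 0 counts in the budesonide libraries and 38, 2 and 36 in the combined libraries, against 148, 84 and 63 with proline alone and 1 count in all control libraries together. Combined replicate 2 thus stayed at the level of the budesonide libraries. Etv4, a target of FGF-ERK signalling, fell with a log2 change of -0.93 ± 0.23 (adjusted p = 0.0398), a call kept in 9 of 22 alternatives and lost without any 1 budesonide replicate or combined replicate 1 or 3, among others (adjusted p up to 0.203), while Spred1, an inhibitor in the same pathway, fell by 0.83 ± 0.17 on the log2 scale (adjusted p = 0.0141) and lost its call without combined replicate 1 or 3 (adjusted p = 0.0977 and 0.0896). They were the called members among 20 tested FGF-ERK targets, of which 2 fell and 0 rose, beside 0.592% and 0.874% of all genes. Of the 20, 12 had a positive change and the median log2 change was 0.21. Without budesonide 3 of them rose and 0 fell, beside 3.17% and 4.71% of all genes. Of 11 tested genes of the primitive streak and mesoderm, Lefty1, an inhibitor of Nodal signalling, rose and 0 fell. It stood at 191, 230 and 181 CPM with budesonide and at 334, 326 and 391 CPM with both (log2 change 0.81 ± 0.14, adjusted p = 0.00239).

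**Figure D3:**
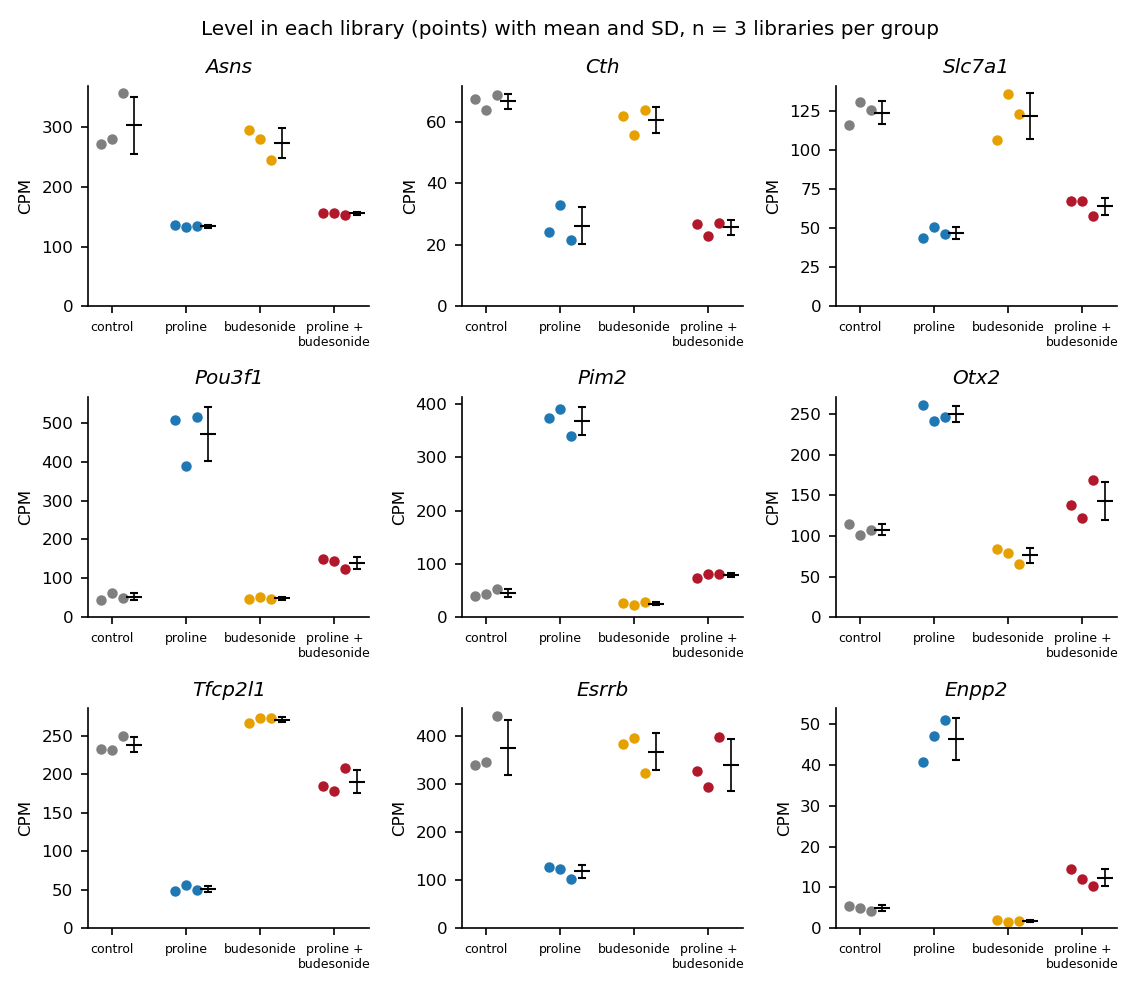
CPM of 9 genes in each of the 12 libraries (points) with the mean and SD of the 3 libraries of a group (bar), each panel on its own axis from 0. Asns, Cth and Slc7a1 are lower with proline in both pairs of groups, Pou3f1, Pim2, Otx2 and Enpp2 are higher in both, and Esrrb is lower with proline in the pair without budesonide only, with an interaction of 1.55 ± 0.19.

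The naive pluripotency network, which proline alone lowered widely, changed much less with budesonide present. Of 24 tested genes 1 fell (Tfcp2l1) and 0 rose, beside 0.592% and 0.874% of all genes, with a median log2 change of -0.14. A negative change was still seen for 17 of the 24, beside 6836 of all 13852 genes tested. Without budesonide 16 fell and 0 rose, beside 4.71% and 3.17% of all genes, with a median of -1.02. The interaction was called for 9 of the 24: Nanog, Esrrb, Klf2, Klf4, Tfcp2l1, Tbx3, Zfp42, Spp1 and Jam2.

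Tfcp2l1, a factor downstream of the LIF signal, stood at 267, 273 and 272 CPM in the budesonide libraries and at 185, 179 and 208 CPM in the combined libraries, which all lay below. Its log2 change was -0.51 ± 0.12 (edgeR, adjusted p = 0.0269) against -2.21 ± 0.12 without budesonide, with an interaction of 1.71 ± 0.17 (adjusted p = 3.82e-06). The call with budesonide ended without any 1 budesonide replicate or without combined replicate 1 or 2 (adjusted p up to 0.137 among these), and when transcript length and GC content were corrected for (adjusted p = 0.112), and the interaction was called in each of the 21 alternatives that give it. Esrrb, an orphan nuclear receptor, was at 384, 395 and 324 CPM with budesonide and at 327, 293 and 398 CPM with both, so that the groups overlapped. Its log2 change of -0.11 ± 0.14 (adjusted p = 0.808) stood against -1.67 ± 0.14 without budesonide (interaction 1.55 ± 0.19, adjusted p = 0.000162).

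Tbx3, a T-box factor, went from 223, 195 and 197 CPM to 148, 163 and 153 CPM, a log2 change of -0.41 ± 0.13 that missed the threshold (edgeR, adjusted p = 0.134) although the groups did not overlap. Without budesonide it fell by 2.38 ± 0.14 on the log2 scale, and the interaction was 1.97 ± 0.19 (adjusted p = 3.82e-06). Nanog, at 268, 238 and 308 CPM with budesonide and at 284, 265 and 285 CPM with both, overlapped between groups (log2 change 0.04 ± 0.14, adjusted p = 0.963). The interaction for Nanog was 1.01 ± 0.20 (adjusted p = 0.0173), a call that ended without control replicate 1, proline replicate 1 or 3, budesonide replicate 2 or combined replicate 1 (adjusted p up to 0.073). For Klf4, Zfp42, Spp1 and Jam2 the log2 changes with budesonide lay between -0.32 (Jam2, adjusted p = 0.285) and 0.21 (Zfp42, adjusted p = 0.66), against -1.36 to -1.73 without it, where all 4 fell. Klf2, with -0.22 ± 0.11 (adjusted p = 0.379), had an interaction of 0.78 ± 0.15 (adjusted p = 0.0143) that was lost without control replicate 2, budesonide replicate 1 or combined replicate 2 (adjusted p = 0.0627, 0.0541 and 0.0623).

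In the list of 15 general pluripotency genes, Rif1, a chromatin and replication timing factor, fell and 0 rose, beside 0.592% and 0.874% of all genes. Rif1 went from 1274, 1204 and 1217 CPM to 977, 924 and 925 CPM (log2 change -0.39 ± 0.09, edgeR, adjusted p = 0.03), and without budesonide its change was -1.17 ± 0.09. Both its call with budesonide and its interaction of 0.78 ± 0.13 (adjusted p = 0.00235) ended when transcript length and GC content were corrected for (adjusted p = 0.367 and 0.064), and the call with budesonide also ended without any 1 of the 6 libraries compared (adjusted p up to 0.118 among these). Of 13 genes of DNA methylation and demethylation, Dnmt3b rose and Tet1, a 5-methylcytosine dioxygenase of naive cells, fell (log2 change -0.48 ± 0.11, adjusted p = 0.0279). The Tet1 call ended under the same correction (adjusted p = 0.254), and without budesonide replicate 2 or 3 or any combined replicate (adjusted p up to 0.151).

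The genes that rose most with budesonide present were low or nearly silent in the budesonide libraries. The ranked rises named below also had a lower mean there than in control, as Car4 with 0.877 against 4.41 CPM. Budesonide against control was not tested here, and ranking by log2 rise favours genes that start low. Enpp2 encodes autotaxin, the secreted enzyme that makes lysophosphatidic acid. It stood at 1.92, 1.55 and 1.84 CPM with budesonide and at 14.6, 12.1 and 10.4 CPM with both compounds, a log2 change of 2.79 ± 0.33 (edgeR, adjusted p = 3.63e-05). Without budesonide its change was 3.22 ± 0.31, and the interaction was -0.43 ± 0.45 (adjusted p = 0.877). The groups were far apart, and the call held in each of 22 alternatives and in a test against a 1.5-fold change.

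Car4, a membrane-bound carbonic anhydrase, went from 0.338, 1.24 and 1.05 CPM to 6.61, 7.02 and 5.34 CPM (log2 change 2.86 ± 0.53, edgeR, adjusted p = 0.0058). Pcdh1, a protocadherin, went from 2.48, 1.24 and 1.32 CPM to 11.4, 6.87 and 11.6 CPM (2.54 ± 0.48, adjusted p = 0.00751). Jph4, a junctophilin, went from 1.58, 1.08 and 2.37 CPM to 8.46, 9.06 and 9.07 CPM (2.38 ± 0.46, adjusted p = 0.00834). All 3 genes also rose without budesonide, by 2.43 ± 0.46, 2.44 ± 0.47 and 1.57 ± 0.43 on the log2 scale, and all 3 lost their call when only the 6 libraries compared were fitted (adjusted p = 0.132, 0.0614 and 0.086).

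Vrtn, vertnin, a transcription factor of vertebral number, rose from 5.75, 5.58 and 5.14 CPM to 20.9, 20.9 and 12.9 CPM (log2 change 1.73 ± 0.28, edgeR, adjusted p = 0.00186), close to its change of 1.94 ± 0.27 without budesonide. Ccno, cyclin O, went from 2.48, 8.99 and 7.11 CPM to 27.4, 23.0 and 29.2 CPM (2.12 ± 0.33, adjusted p = 0.00153), with 1.35 ± 0.31 without budesonide. Pnp, purine nucleoside phosphorylase, rose by 1.58 ± 0.30 (adjusted p = 0.00751) and was not called without budesonide (0.54 ± 0.29, adjusted p = 0.327), with an interaction of 1.04 ± 0.42 that missed the threshold (adjusted p = 0.456). These 3 genes were called in each of the 22 alternatives other than the test against a 1.5-fold change, which Ccno alone of them passed.

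Further large rises were less secure. Hs6st2, a heparan sulfate sulfotransferase, rose by 2.25 ± 0.52 on the log2 scale (edgeR, adjusted p = 0.0299), a call that ended without budesonide replicate 2 or 3 or combined replicate 1 or 2 (adjusted p up to 0.152 among these). Kif1a, a neuronal kinesin, rose by 2.10 ± 0.52 (adjusted p = 0.0404), a call that ended without proline replicate 1 or 3, budesonide replicate 1 or 2, or any combined replicate (up to 0.161). Gins2, a subunit of the replicative helicase, rose by 1.91 ± 0.45 (adjusted p = 0.0322) with -0.11 ± 0.43 without budesonide, and its call ended without budesonide replicate 2 or 3 or combined replicate 1 or 3 (up to 0.190). Ntan1, an N-terminal asparagine amidase, rose by 1.55 ± 0.37 (adjusted p = 0.0357) with -0.15 ± 0.35 without budesonide, and lost its call without any 1 budesonide replicate or without combined replicate 1 or 2 (up to 0.203). The Ntan1 and Kif1a calls also ended when transcript length and GC content were corrected for (adjusted p = 0.0609 and 0.0501). Neither Gins2 nor Ntan1 had a called interaction (adjusted p = 0.234 and 0.22). Mean CPM of Gins2 was 13.5 in control, 4.47 in budesonide and 16.9 in combined libraries. That of Ntan1 was 22.4, 6.74 and 19.9, so both combined means were near the control level.

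Some called genes had no count in any budesonide library. Gbp2, an interferon-inducible GTPase, had 9, 19 and 45 counts in the combined libraries, and Cxcl12, a chemokine, had 26, 18 and 10. Set against a floor of 3 counts over the budesonide group, Gbp2 was at least 26.8-fold higher and Cxcl12 at least 19.8-fold higher (edgeR, adjusted p = 0.0166 and 0.0168). The bounds cover counting error only. Both genes were chosen for their empty budesonide libraries after the values were seen.

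The falls seen in both settings were led by genes of varied function. H2bc4, a histone H2B gene, stood at 139.5, 119.8 and 99.4 CPM with budesonide and at 47.5, 44.7 and 36.7 CPM with both (log2 change -1.48 ± 0.17, edgeR, adjusted p = 2.61e-05). Cobl, an actin nucleator, stood at 144, 133 and 161 CPM and at 56.6, 61.4 and 49.6 CPM (-1.38 ± 0.16, adjusted p = 2.61e-05). Mapt, the microtubule protein tau, went from 45.9, 48.0 and 54.4 CPM to 13.99, 15.2 and 24.3 CPM (-1.47 ± 0.23, adjusted p = 0.00178). None of the 3 overlapped between groups, and without budesonide their log2 changes were -2.36 ± 0.17 for H2bc4, -2.19 ± 0.16 for Cobl and -2.49 ± 0.24 for Mapt, with no called interaction (adjusted p = 0.122, 0.142 and 0.281).

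Mitf, the basic helix-loop-helix factor known from melanocytes, went from 64.0, 71.5 and 74.9 CPM to 28.4, 31.9 and 23.7 CPM (log2 change -1.32 ± 0.23, edgeR, adjusted p = 0.00312). In control and proline cells Mitf stood lower, at 31.2 to 39.5 and 4.29 to 7.65 CPM. Ttn, the giant muscle protein titin, went from 30.7, 40.8 and 30.6 CPM to 11.2, 10.5 and 10.8 CPM (-1.64 ± 0.27, adjusted p = 0.00227), a call that ended when transcript length and GC content were corrected for (adjusted p = 0.0659). Over all genes, those with transcripts longer than 8 kb had a median log2 change of -0.14 (2 rose and 18 fell of 730) and those of 1 to 2 kb a median of 0.08 (39 rose and 8 fell of 2683), and the part of this in the fall of Ttn was not tested beyond that correction.

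The largest fitted falls were in genes of low level. Snora15, a small nucleolar RNA, fell from 9.59, 13.5 and 2.502 CPM to 0.154, 0.146 and 1.47 CPM (log2 change -3.78 ± 0.92, edgeR, adjusted p = 0.0374), and its call ended without control replicate 1, budesonide replicate 1 or 2 or combined replicate 1 or 2 (adjusted p up to 0.169 among these). Dglucy, D-glutamate cyclase, fell from 14.7, 11.5 and 14.8 CPM to 2.92, 0.439 and 0 CPM (-3.62 ± 0.78, adjusted p = 0.0196), a call that ended without combined replicate 2 or 3 (adjusted p = 0.0913 and 0.0581). Grin2b, an NMDA receptor subunit, fell by 2.13 ± 0.47 on the log2 scale (adjusted p = 0.0221), a call lost without budesonide replicate 2 or 3 or combined replicate 2 or 3 (up to 0.110). The Grin2b and Snora15 calls also ended when transcript length and GC content were corrected for (adjusted p = 0.0609 and 0.0793). The organic cation exporter Slc47a1 fell by 1.91 ± 0.45 (adjusted p = 0.0303), lost without budesonide replicate 1 or 2 or combined replicate 1 or 3 (up to 0.166), and the long non-coding RNA Pvt1 fell by 1.68 ± 0.40 (adjusted p = 0.0328), lost without control replicate 2, budesonide replicate 1 or 3 or combined replicate 1 or 3 (up to 0.176).

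The interaction picked out genes whose proline response was much smaller with budesonide. Cnksr3, a scaffold protein of MAPK signalling, stood at 10.7, 9.92 and 6.85 CPM with budesonide and at 10.9, 9.94 and 6.67 CPM with both, but at 1.39 to 4.91 CPM in control and 21.2 to 26.3 CPM in proline libraries. Its interaction was -2.86 ± 0.57 on the log2 scale (edgeR, adjusted p = 0.0163), a call that ended without proline replicate 3 or combined replicate 3 (adjusted p = 0.07 and 0.0595). Irf1, an interferon regulatory factor, had a log2 change of 0.38 ± 0.18 with budesonide (adjusted p = 0.365) and 1.74 ± 0.18 without, an interaction of -1.36 ± 0.25 (adjusted p = 0.00864).

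Among genes that fell without budesonide, the predicted genes Gm13223 and Bcas3os1 had the largest fitted interactions, but both had no count in any proline library, so the fitted size depends on the prior count and is not given. Gm10800, a predicted gene, was already low with budesonide (55.7, 38.4 and 29.9 CPM) and stood at 29.4, 30.0 and 31.6 CPM with both, while it stood at 285 to 365 CPM in control and at 11.9 to 30.9 CPM in proline libraries (interaction 3.38 ± 0.34, edgeR, adjusted p = 5.06e-06). Calcoco2, an autophagy receptor, was at 17.1, 23.1 and 28.7 CPM with budesonide and at 43.8, 37.3 and 33.9 CPM with both. That log2 change of 0.74 ± 0.27 missed the threshold (edgeR, adjusted p = 0.207). Without budesonide Calcoco2 fell by 1.40 ± 0.28 on the log2 scale (interaction 2.14 ± 0.39, adjusted p = 0.00746). No gene was called with budesonide and in the interaction without being called in the same direction without budesonide: the count was 0, and 1198 genes (8.65%) had an unadjusted interaction p below 0.05. The 6 genes called with budesonide and in the interaction were Pou3f1, Pim2, Dnmt3b, Rif1, Mras and Tfcp2l1.

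Most other lists held few called genes, where over all genes 0.874% rose and 0.592% fell with budesonide. Of 27 tested genes of glycolysis and hypoxia 2 rose and 0 fell, with a median log2 change of 0.20. Slc2a1, the main glucose transporter, went from 599, 555 and 604 CPM to 821, 851 and 944 CPM (log2 change 0.57 ± 0.10, edgeR, adjusted p = 0.00243), beside 0.52 ± 0.10 without budesonide (interaction 0.06 ± 0.14, adjusted p = 0.957), and it was called in each of 22 alternatives but not against a 1.5-fold change. The other, the glycolytic enzyme Tpi1 (0.46 ± 0.12, adjusted p = 0.0473), was called in 4 of 22 (adjusted p up to 0.227). Of 22 glucocorticoid receptor targets 1 fell and 0 rose. Mt2, the metallothionein, went from 474, 569 and 465 CPM to 249, 276 and 285 CPM (-0.90 ± 0.12, adjusted p = 0.00014), with -0.44 ± 0.11 without budesonide and an interaction of -0.46 ± 0.16 that missed the threshold (adjusted p = 0.363). Mt2 was not higher with budesonide alone, with a mean of 503 CPM there against 759 CPM in control and 559 CPM in proline libraries. Metallothioneins are known to respond to zinc as well as to glucocorticoids.

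A single gene was called in each of 3 further lists. Ccng1, cyclin G1, fell among 21 p53 targets (log2 change -0.49 ± 0.11, edgeR, adjusted p = 0.0259), Dsg2, a desmosomal cadherin, fell among 31 adhesion and epithelial genes (-0.79 ± 0.18, adjusted p = 0.0301), and Vim, the intermediate filament vimentin, rose among 18 genes of mesenchymal transition (0.50 ± 0.13, adjusted p = 0.0473). They were called in 13, 15 and 5 of 22 alternatives, and leaving out budesonide replicate 3 (adjusted p = 0.0793, 0.118 and 0.151) or combined replicate 1 (adjusted p = 0.0655, 0.164 and 0.107), among other libraries, ended the call for each. No gene was called with budesonide among 23 collagen and basement membrane genes, 19 Wnt targets, 26 cholesterol synthesis genes (median log2 change 0.30, 20 positive), 14 neuroectoderm, 9 endoderm, 15 trophoblast, 16 germline, 6 2-cell-like and 6 feeder fibroblast genes. Over all genes 50.6% had a positive change.

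The 9 mitochondrially encoded genes tested all had a positive change with budesonide (median 0.15), with 0 called, whereas 6 fell without it. Over all genes 50.6% had a positive change with budesonide and 4.71% fell without it. The share of all counts on mitochondrial genes was 7.72% ± 0.280 (SD, n = 3) with budesonide and 7.95% ± 0.0707 (SD, n = 3) with both, a difference that missed the threshold (two-sided exact permutation test, p = 0.3, where 3 against 3 cannot go below 0.1). The interaction was called for mt-Nd2 (0.81 ± 0.13, edgeR, adjusted p = 0.00235) and mt-Nd4 (0.79 ± 0.12, adjusted p = 0.00129) among others, and these calls ended when transcript length and GC content were corrected for (adjusted p = 0.097 and 0.317).

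**Figure D4:**
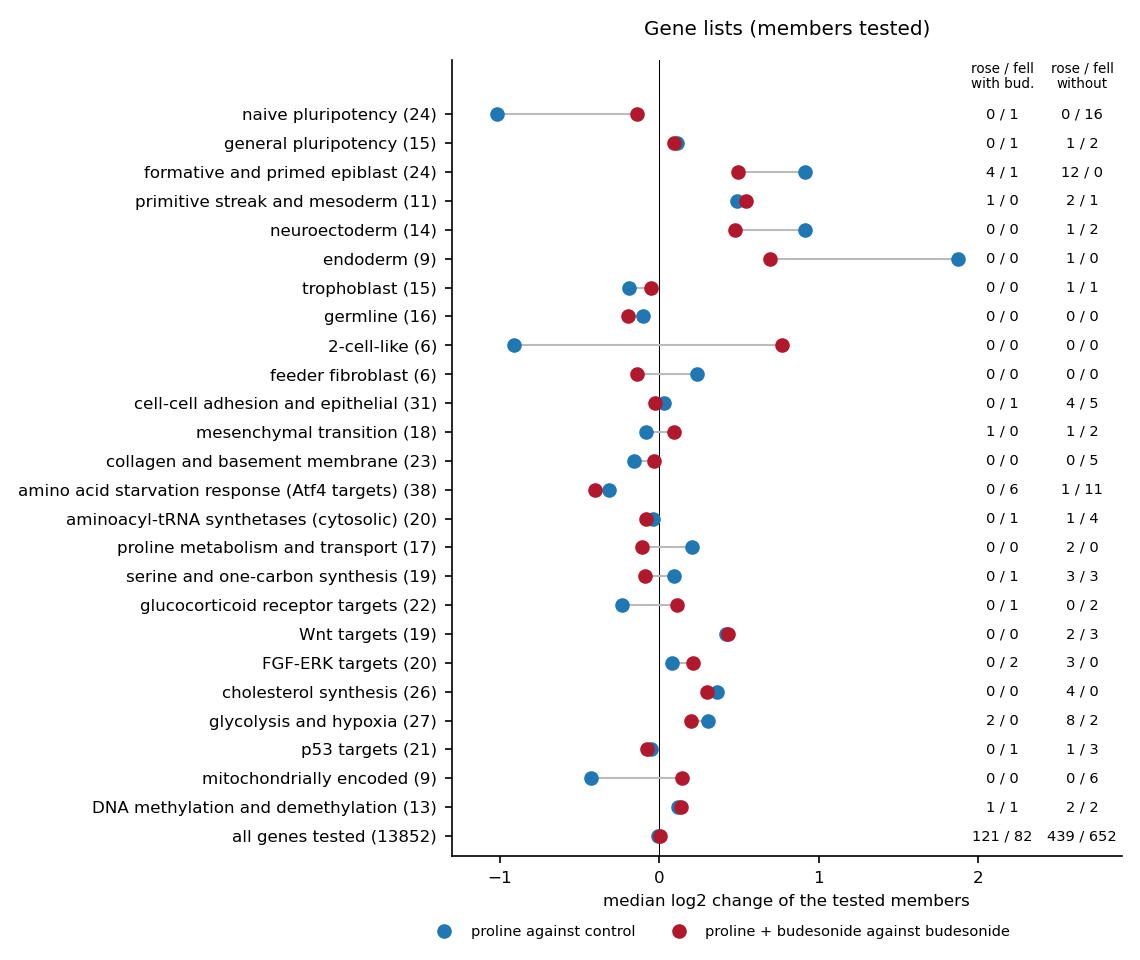
Median log2 change with proline of the tested members of 25 gene lists and of all genes, without budesonide (blue) and with budesonide (red), with the counts of members that rose and fell at the right. The naive pluripotency median is -1.02 without and -0.14 with budesonide, and that of the starvation response is -0.32 and -0.40.

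Marker lists of other cell types were low, and the neural and mesoderm sums did not overlap between the groups, as 19.4% of all single genes tested did not. Summed CPM of 6 trophoblast markers ran from 54.7 to 83.1 with budesonide and from 77.2 to 99.2 with both, of 6 neural markers from 68.5 to 76.2 and from 80.5 to 101, and of 6 primitive endoderm markers from 5.39 to 18.1 and from 16.2 to 23.2. Sums of 5 mesoderm markers ran from 0.131 to 3.04 and from 5.25 to 5.98, and of 6 2-cell-like markers from 1.45 to 5.10 and from 1.75 to 9.05. The mesoderm sum in control libraries alone ran from 0.385 to 13.7, which spans both groups. The neural sum was not higher with proline alone, at 45.35 to 56.7 against 54.7 to 65 in control. The trophoblast marker Elf5 and the neural marker Zic1 had no count in either group, and T and Mixl1 had none with budesonide. The part of such cells in the results above was not tested, and in bulk libraries more cells of a type and more RNA per cell cannot be told apart.

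Small nucleolar RNAs, which guide the chemical modification of ribosomal RNA and are processed from introns, made up a smaller share of counts with proline in both settings. They were picked out as a class, with the related small Cajal body RNAs, after the values were seen, from the gene types of the GENCODE annotation, so the values of the class are a description. Of 83 tested, 7 fell (8.43%, against 0.592% of all genes) and 0 rose with budesonide, with a median log2 change of -0.75 and 64 negative changes. Without budesonide 11 fell and 0 rose, beside 4.71% and 3.17% of all genes, with a median of -1.06, and the interaction was called for 0. Gm22748, with the smallest adjusted p of the class, stood at 134, 141 and 186 CPM with budesonide and at 52.9, 46.5 and 38.1 CPM with both (log2 change -1.75 ± 0.20, edgeR, adjusted p = 2.61e-05). Gm23639 was at 167, 150 and 165 CPM and at 57.8, 77.2 and 61.6 CPM (-1.29 ± 0.19, adjusted p = 0.000747), and neither overlapped between groups. The fall was not shared by every member. Gm24289, at means of 63.4 CPM with budesonide and 70.9 CPM with both, changed by 0.16, and Snord104 and Snord89 by -0.06 and -0.19. Summed over all 1093 such symbols, the share of counts was 0.115% ± 0.0102 in control, 0.0605% ± 0.00757 in proline, 0.118% ± 0.0038 in budesonide and 0.0659% ± 0.00594 in combined libraries (SD, n = 3 each). Small nucleolar RNAs are mostly not polyadenylated, and from which transcripts their counts in these libraries came was not tested.

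**Figure D5:**
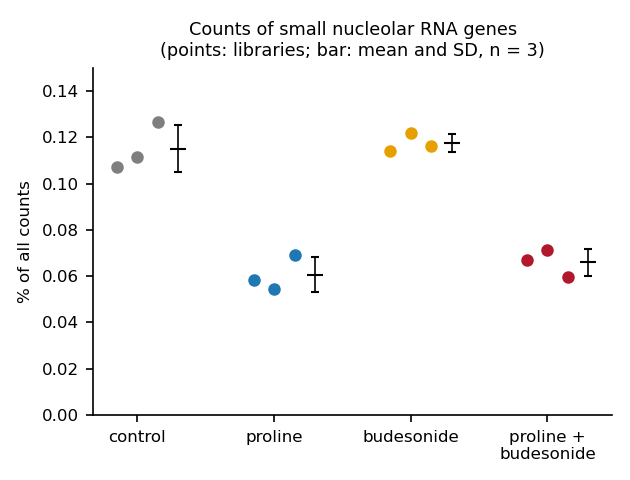
Share of all counts on small nucleolar RNA genes in each of the 12 libraries (points) with the mean and SD of the 3 libraries of a group (bar). The proline and combined libraries all lie below the control and budesonide libraries, at means of 0.0605% and 0.0659% against 0.115% and 0.118%.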

How the data were processed

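RNA from 12 libraries of E14 cells, 3 per group, was read near the 3′ end of polyadenylated transcripts. The authors deposited whole-number counts for 53819 gene symbols. Per the submitters' processing notes, the tools were cutadapt 2.5, STAR 2.7.5c, featureCounts 2.0, bcl2fastq and DESeq2, and the build was GRCm39. For their roles, the annotation, the strand setting and the counting of multi-mapping reads, the answer is not given in the sources used here, so values of genes with near copies (H2bc4, the small nucleolar RNAs) or with overlapping neighbours are uncertain. A second deposited table of normalised values was not used here. Totals ran from 5.30 to 15.9 M counts, and floors from counts cover counting error only.

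The test was edgeR 4.0.16 in R 4.3.3: filterByExpr (minimum count 10, minimum total 15, leaving 13852 genes), TMM scaling, and the two-sided quasi-likelihood F test on all 12 libraries with 1 coefficient per group and 8 residual degrees of freedom. A gene was called, and is said to have risen or fallen, at a Benjamini-Hochberg adjusted p below 0.05 over all genes. The SE is the size of the log2 change divided by the root of F, with a prior count of 0.125. CPM used TMM-scaled totals. The script was tested on simulated data.

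By rule, the text names the called genes that moved most with budesonide, those called the same way with and without it, those called without it and in the interaction, and members of 25 gene lists. Genes named beyond this rule are said to be so. The comparison and the lists were chosen with earlier results of these data known. Transcript lengths and GC content came from GENCODE M21 (98.97% of tested genes matched by symbol) and promoters from RefSeq (GRCm38.p6), matched by symbol.

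Alternatives were a fit of the 6 libraries alone, a block on the replicate number, offsets for transcript length and GC content, DESeq2 size factors, DESeq2 1.42.0, limma-voom (limma 3.58.1), no filter, a filter at 50 counts, a test against a 1.5-fold change and leaving out each library. Leaving out control 3 and budesonide 3 together was added after seeing the data. Deviations of same-numbered budesonide and combined libraries correlated at -0.091 to -0.016, and those of differently numbered ones at -0.0195 to 0.082. No pairing by number was thus seen, which 3 libraries a group cannot exclude.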

Additional observations from a re-analysis of the deposited data

Results flagged for a closer look

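The proline effect with budesonide differed from that without it, by edgeR's interaction test at an adjusted p below 0.05, for 65 genes, and the sizes of 20 of them follow. Among naive pluripotency genes that fell with proline alone, the interaction (log2 change with budesonide minus log2 change without) was 1.71 for Tfcp2l1, 1.55 for Esrrb, 1.01 for Nanog, 1.39 for Klf4, 1.97 for Tbx3, 0.78 for Klf2, 1.56 for Zfp42, 1.21 for Spp1 and 1.41 for Jam2. Among formative genes that rose with proline alone, it was -1.63 for Pou3f1, -1.37 for Pim2, -0.99 for Dnmt3b and -0.996 for Dnmt3a. It was 0.78 for Rif1, 0.81 for mt-Nd2 and 0.79 for mt-Nd4, and -2.86 for Cnksr3, -1.36 for Irf1, 2.14 for Calcoco2 and 3.38 for Gm10800. Every one of these effects was smaller in absolute size with budesonide.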

How the results depend on the processing

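All 203 calls kept their sign in each alternative in which the gene was tested, and 43 were called in all of the 22 other than the fold test. The counts moved more than the directions, and with 3 libraries a group single libraries decide many calls.

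The counts of genes that rose and fell (121 and 82) were 65 risen with only the 6 libraries, 65 risen with length and GC offsets, 234 and 185 with DESeq2, 221 and 133 with no filter, and 4 and 3 against a 1.5-fold change. Interaction calls (65) were 145 with DESeq2, 134 with no filter and 10 against a 1.5-fold change. Genes called the same way with and without budesonide (125) were 223 with DESeq2 and 6 against a 1.5-fold change, where proline without budesonide raised 54 and lowered 138 genes.

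Median log2 changes with budesonide of the genes that rose with proline alone (0.38) were 0.32 with offsets, 0.36 with DESeq2 size factors, 0.33 with DESeq2, 0.36 with limma-voom, 0.34 with the filter at 50 counts, 0.76 for those past a 1.5-fold change and 0.36 without control 3 and budesonide 3. For the genes that fell (-0.35) they were -0.38 with offsets, -0.33 with limma-voom and -0.60 for those past a 1.5-fold change.

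With the replicate block, 78 genes rose and 50 fell, and the median of the risen genes was 0.40. With the block and the offsets together, 52 rose and 40 fell, 31 interactions were called, 67 genes were called the same way in both settings, and the medians were 0.35 and -0.40. No pairing by number was seen, and whether a call lost under the block reflects a weaker effect was not tested.

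Leaving out each library in turn gave 50 to 191 risen and 30 to 116 fallen genes with budesonide, 223 to 521 risen and 451 to 724 fallen genes without it, 44 to 89 interaction calls, and 60 to 150 genes called the same way in both. The medians ran from 0.36 to 0.41 for risen and from -0.38 to -0.33 for fallen genes, and the kept share over both (0.385) from 0.362 to 0.402.

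Near 0, Nanog (0.04) turned to -0.011 with the offsets, with or without the block, and ran from -0.036 to 0.14 over the left-out libraries, and Klf4 (-0.09) ran from -0.16 to 0.045. The depth limits genes of a few CPM: 1 count was worth 0.0654 to 0.193 CPM.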

Other observations

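Some genes outside the lists and the ranked genes were called in each of the 22 alternatives other than the fold test, a group of 43 genes in all of which 30 rose and 13 fell with proline in budesonide. Those described here were chosen after their values were seen. Trh, the precursor of thyrotropin-releasing hormone, stood at 315, 271 and 233 CPM with budesonide and at 520.3, 597 and 490.2 CPM with both compounds (log2 change 0.97 ± 0.12, edgeR, adjusted p = 5.09e-05), with 1.34 ± 0.12 without budesonide. The gap junction protein gene Gja1 went from 140.1, 132 and 123 CPM to 242, 267 and 230.1 CPM (0.90 ± 0.12, adjusted p = 0.000236), and its change without budesonide was 0.47 ± 0.12. No library of one group overlapped the other for either gene.

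P4hb, the protein disulfide isomerase that is also the beta subunit of collagen prolyl 4-hydroxylase, rose by 0.70 ± 0.12 on the log2 scale (edgeR, adjusted p = 0.00249) and Pdia6, another disulfide isomerase, by 0.58 ± 0.10 (adjusted p = 0.00291). The peroxiredoxins Prdx2 and Prdx6 rose by 0.75 ± 0.14 (adjusted p = 0.00521) and 0.60 ± 0.10 (adjusted p = 0.00328). Without budesonide P4hb, Prdx2 and Prdx6 also rose, by 0.38 ± 0.12, 0.79 ± 0.14 and 0.36 ± 0.10, while Pdia6 had 0.24 ± 0.10 (adjusted p = 0.156). Scd2, a fatty acid desaturase, rose by 0.94 ± 0.18 (adjusted p = 0.00708), Pabpc4, a poly(A)-binding protein, by 0.90 ± 0.15 (adjusted p = 0.00227), and Mdk, the growth factor midkine, by 0.74 ± 0.13 (adjusted p = 0.00328).

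Npm1, the nucleolar chaperone nucleophosmin, went from 1674, 1723 and 1570 CPM to 2328, 2079 and 2523 CPM (log2 change 0.48 ± 0.09, edgeR, adjusted p = 0.00668). Its control and proline libraries stood at 2913 to 3245 and at 3009 to 3428 CPM, with a change of 0.07 ± 0.09 (adjusted p = 0.782), and the interaction missed the threshold (0.41 ± 0.13, adjusted p = 0.235). Among the falls, Anxa6, a calcium-dependent membrane-binding annexin, changed by -0.97 ± 0.15 (adjusted p = 0.00114) and Rbpj, the DNA-binding partner of Notch, by -0.66 ± 0.13 (adjusted p = 0.00728), beside -1.04 ± 0.15 and -0.74 ± 0.13 without budesonide.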
